A study of Apostichopus japonicus with 9 samples.

Results

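The genes analysed here encode the proteins that bring new proteins into the endoplasmic reticulum (ER), fold and check them there, and send them on in the body wall of *Apostichopus japonicus* (AJBW). They were taken from the KEGG annotation of the expression table. A gene was kept if it was assigned to the pathway Protein processing in endoplasmic reticulum or Protein export and had an FPKM above 0 in at least 2 libraries. Genes also assigned to Ubiquitin mediated proteolysis or Proteasome were dropped, as were genes described as heat shock, DnaJ, calpain or Bax proteins. Of the 53665 genes in the table, 135 carried either pathway, and 91 of them were kept. In all, 79 belonged to the processing pathway, 17 to the export pathway, and 12 to the export pathway only. The rule itself used no measured values beyond the requirement of detection, but it was set with earlier results of these data known.

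The sea cucumbers weighed 150 ± 20 g, and their age, sex and strain were not given in the sources used here. Pieces of body wall without viscera and heads were frozen fresh (CON) or after incubation on petri plates at 37 °C for 1 h (T_1h) or 3 h (T_3h), and mRNA libraries of each group were sequenced (n = 3 libraries per group). The pieces were excised tissue, so the comparison is of a heated explant against fresh tissue and has no incubated control without heat. Incubation time and heat cannot be told apart in this design.

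In animal and yeast cells, a nascent secreted protein is recognised by the signal recognition particle (SRP), docked at the SRP receptor and threaded through the Sec61 channel into the ER. There it receives N-linked glycans from the oligosaccharyltransferase, is bound by chaperones such as BiP, calnexin and calreticulin, and acquires disulfide bonds through protein disulfide isomerases. Correctly folded cargo leaves in vesicles coated by COPII, misfolded protein is extracted and degraded (ER-associated degradation), and sensors such as IRE1 and ATF6 start the unfolded protein response when folding falls behind. Connective tissue such as this body wall secretes collagen, whose long procollagen molecules use the COPII route in vertebrates. The roles given below are those known from vertebrates and yeast, and the genes are named after the descriptions or KEGG entries in the table.

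By these annotations the 91 genes fell into 10 role groups. They were translocation (20 genes), N-glycosylation (6), folding chaperones (2), lectin chaperones (5), glycan trimming (6), disulfide formation (7), ER-associated degradation (22), the unfolded protein response (8), ER exit (9) and others (6). The 91 gene models carried 66 different KEGG orthology (KO) entries, and 22 of these entries were each carried by 2 or more gene models, 47 models in all. Reads from such similar models may have been shared between them when FPKM was calculated, so the values of single copies are less certain than those of single-copy genes. Their mean FPKM over the 9 libraries had a median of 4.03 and reached 164 in TRAP gamma. In 81 of the 91 genes FPKM was above 0 in every library, and 76 had a mean FPKM of at least 1 over the 8 libraries used for testing.

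Values of a gene are given in the order of replicates 1, 2 and 3. The library T_1h_1 was left out of the tests, as in the study, and is shown among the values. The table held between 38194 and 43948 genes above 0 per library, with the fewest in T_3h_2, whose median FPKM over genes above 0 was also the lowest (0.501, against 0.771 to 1.25 in the other libraries). From the steps in the lowest FPKM values, the depth of the other 8 libraries was 0.824 to 1.09 of that of CON_1, and T_3h_2 was at 1.09. Mapping was less even. In the study's alignment summary T_3h_1 and T_3h_2 had the largest shares of multimapped reads of all libraries. T_3h_1 also had the fewest uniquely mapped reads. The part of this difference in the values of T_3h_1 and T_3h_2 below was not tested. Samples with the same replicate number deviated together. Markers of connective tissue (42 genes) summed to 3187 to 6116 FPKM in CON, 3414 to 5984 in T_1h and 3480 to 7844 in T_3h, and none was at 0 in all libraries. Muscle markers summed to 76.6 to 135 FPKM in CON, 83.1 to 232 in T_1h and 92.5 to 205 in T_3h, nerve markers to 51.3 to 85.5, 62.8 to 69.6 and 24.4 to 78.6, and immune cell markers to 379 to 665, 474 to 1004 and 541 to 1083. The ranges of the groups overlapped for every list, and the part of cell composition in the results below was not tested. In bulk tissue, fewer cells of a type and less RNA per cell cannot be told apart.

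After 3 h at 37 °C, 12 of the 91 genes were lower than in CON and 0 were higher (T_3h vs. CON, unadjusted p of at most 0.05 and a log2 fold change of at least 1 in either direction, limma on log2(FPKM + 1)). Of all 50973 genes tested, 3.67% were lower by the same rule and 0.473% were higher, and of the 20339 genes averaging 1 FPKM or more over the 8 libraries, 8.63% were lower. In that expression range 12 of 76 of the ER genes were lower (all 12 had such a mean). The 12 genes were 2 gene models of Sec23A and 2 of Sec31A, Sec24A and Sec24C of the COPII coat, SRP68, SRP72, SRP receptor alpha and TRAM1 of the translocation machinery, the oxidoreductase PDIA3 and the chaperone BiP. None of the 91 genes passed after Benjamini-Hochberg adjustment over all tested genes (lowest adjusted p from limma, 0.649). The median log2 fold change of the 91 genes was -0.55, against -0.17 for all tested genes and -0.40 for those averaging 1 FPKM or more. Genes below CON on average made up 79 of the 91, which is 86.8%, against 71.3% of all tested genes and 79.7% of those averaging 1 FPKM or more.

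**Figure D1:**
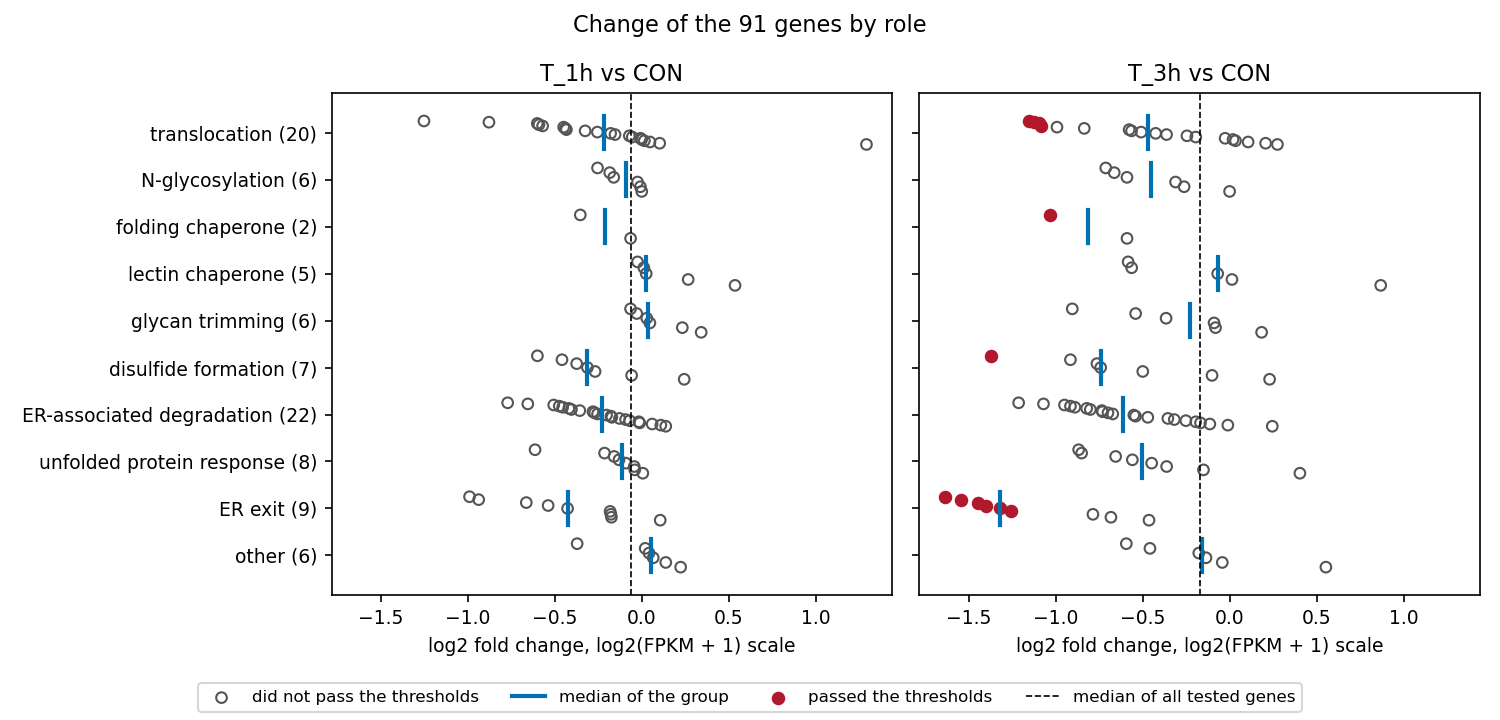
Log2 fold change on the log2(FPKM + 1) scale (x axis) of each of the 91 genes by role group (y axis, number of genes in brackets) after 1 h (left) and 3 h (right) against CON. Filled points passed the thresholds, blue bars are group medians and the dashed line is the median of all tested genes, and the ER exit genes of T_3h vs. CON hold 6 of the 12 filled points.

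Several libraries decided how many genes passed. Without T_3h_3 the count was 23, all lower, beside 6.66% of all tested genes. Without T_3h_2 it was 5, of which 4 were lower, beside 1.92% of all tested genes, and 1, a calreticulin gene, was higher, beside 0.512%. Without T_3h_1 it was 3, beside 2.21% of all tested genes lower, without CON_2 it was 4, also beside 2.21%, and without CON_3 it was 7, beside 3.63%. With the replicate number as a block it was 15, all lower, beside 5.5% of all tested genes lower and 0.722% higher. In that fit the lowest adjusted p of the ER genes was 0.207 from limma with the block. With the block and all 9 libraries, their lowest adjusted p from limma was 0.109. The median log2 fold change of the ER genes was -0.30 without T_3h_2 (90 of them tested) and -0.85 without T_3h_3. For all tested genes it was -0.09 and -0.28, and for those averaging 1 FPKM or more -0.24 and -0.59. Scaling the libraries by median ratios moved the median of all tested genes from -0.17 to -0.02 and that of the ER genes to -0.19. The median of genes averaging 1 FPKM or more was then -0.06, and 5 ER genes were lower and 2 were higher. The 5 were both Sec23A models, Sec24C, one Sec31A model (MSTRG.38713) and PDIA3, beside 1.68% of all tested genes lower and 1.12% higher under that scaling. T_3h_2 was the lowest of the 9 libraries in 57 of the 91 genes, beside 24.3% of all tested genes, and T_3h_3 was the highest of the T_3h libraries in 73, beside 54.4%. Among genes averaging 1 FPKM or more, the same held in 55 and 62 of 76 ER genes, beside 39.1% and 61.8% of all such genes.

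Without any model, the 3 T_3h values lay below all 3 CON values in 21 of the 91 genes, against 9% of all tested genes, and above them in 0 genes, against 1.68%. Among genes averaging 1 FPKM or more it was 20 of 76, against 13.6%. Comparing libraries of the same replicate number, T_3h was below CON in all 3 pairs for 49 of the 91 genes (26.4% of all tested genes), and for 46 of the 76 averaging 1 FPKM or more (40.5%).

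The genes of ER exit had the lowest median of the 10 role groups (T_3h vs. CON, -1.32 over 9 genes). COPII is built in layers. The GTPase Sar1 recruits Sec23 and Sec24, which form the inner coat and bind cargo, and Sec13 with Sec31 then forms the outer cage. All 6 gene models of Sec23, Sec24 and Sec31 passed the thresholds, whereas Sar1b, Sec13 and VIP36 did not.

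Sec23A (MSTRG.46306), the inner coat subunit that stimulates Sar1, had 27.9, 33.7 and 26.4 FPKM in CON, 16, 12.7 and 17.1 in T_1h and 8.50, 5.27 and 14.4 in T_3h. All T_3h libraries were below all CON libraries, and the T_1h libraries, T_1h_1 included, were also below them. It fell by 1.64 on the log2 scale in T_3h vs. CON (SE 0.41, adjusted p = 0.649 from limma), the largest fall among the 91 genes, and passed the thresholds in all 18 alternative fits. Its second gene model (MSTRG.10308) had 3.64, 3.36 and 8.71 FPKM in CON, 2.01, 1.83 and 2.03 in T_1h and 1.10, 0.729 and 1.66 in T_3h. The 3 groups did not overlap in order of CON, T_1h and T_3h, and CON_3 was far above the other CON libraries. This model fell by 1.45 (SE 0.43, adjusted p = 0.686 from limma) and lost its call in 1 of the 18 alternatives, the Ballgown-type test.

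Sec24C (MSTRG.42888), a cargo-binding subunit of the inner coat, had 26.5, 27.9 and 16.3 FPKM in CON, 14.4, 14 and 17.1 in T_1h and 5.11, 5.83 and 12.3 in T_3h. T_3h lay below CON in every library, while T_1h_3 was above CON_3. It fell by 1.54 (SE 0.42, adjusted p = 0.676 from limma), and it too lost its call only in the Ballgown-type test among the 18 alternatives. Sec24A (MSTRG.25336) had 5.70, 11 and 7.09 FPKM in CON, 5.06, 5.10 and 8.64 in T_1h and 1.43, 1.36 and 6.29 in T_3h. Here T_3h_3 was above CON_1, so the groups overlapped. It fell by 1.32 (SE 0.53, adjusted p = 0.798 from limma), and the call was kept in 10 of 18 alternatives and lost under median-ratio scaling.

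Sec31A, the rod of the outer cage, had 2 gene models. The first (MSTRG.9528) had 7.25, 11.5 and 12.2 FPKM in CON, 5.08, 7.88 and 9.72 in T_1h and 2.09, 2.59 and 7.98 in T_3h, and the second (MSTRG.38713) had 3.89, 9.45 and 5.11 FPKM in CON, 2.34, 5.54 and 4.51 in T_1h and 0.706, 1.15 and 3.62 in T_3h. T_3h_1 and T_3h_2 were low in both models. T_3h_3 was within the CON range in the first model and just below it in the second, so only in the second did T_3h not overlap CON. The 2 models fell by 1.26 (SE 0.48, adjusted p = 0.783 from limma) and 1.40 (SE 0.49, adjusted p = 0.742), with the call kept in 10 and 14 of 18 alternatives.

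Sar1b (MSTRG.25335), which starts the coat, had 34.6, 19.5 and 28.6 FPKM in CON, 4.06, 12 and 22.7 in T_1h and 23.2, 8.68 and 21.3 in T_3h. The lowest value was in T_1h_1 and the groups overlapped widely (T_3h vs. CON, log2 fold change -0.68, SE 0.48, adjusted p = 0.879 from limma). Sec13 (MSTRG.38164), the partner of Sec31, had 9.59, 12.6 and 12 FPKM in CON, 10.8, 6.82 and 9.72 in T_1h and 7.12, 7.70 and 9.08 in T_3h. All T_3h libraries were below all CON libraries, but the difference was small (log2 fold change -0.46, SE 0.33, adjusted p = 0.879), and under median-ratio scaling it was 0.01. VIP36 (MSTRG.19693), a lectin of the early secretory pathway that binds glycoproteins, ranged from 1.94 to 7.74 FPKM in CON and from 0.767 to 4.53 in T_3h (log2 fold change -0.79, SE 0.57, adjusted p = 0.879 from limma).

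**Figure D2:**
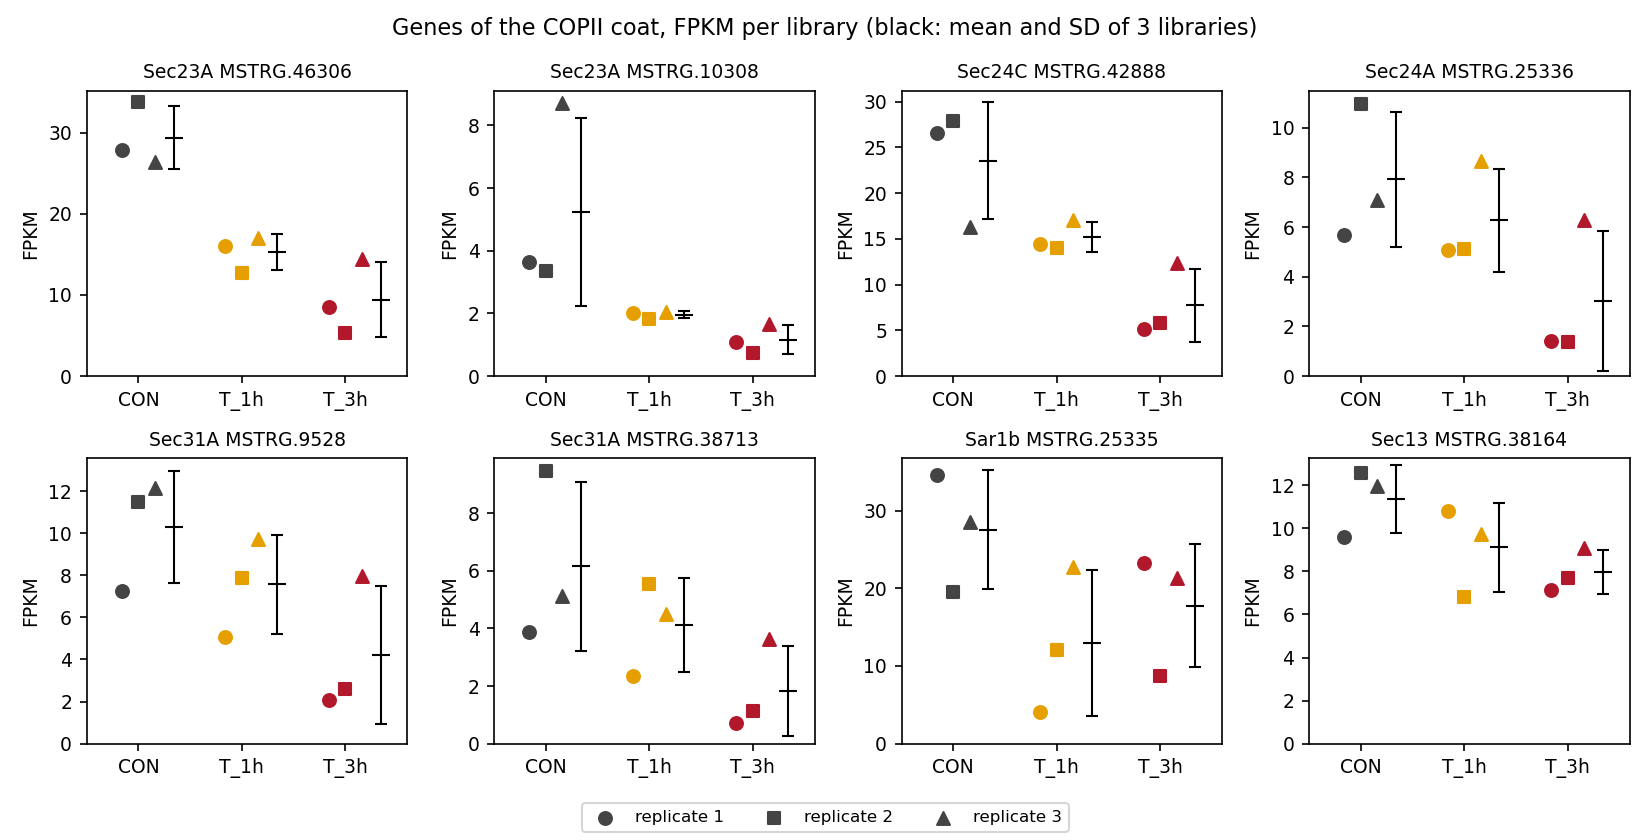
FPKM (y axis) of the 8 COPII genes in each library by group (x axis), with marker shapes for the replicate number and black bars for the mean and SD of 3 libraries. In the 6 Sec23, Sec24 and Sec31 models T_3h_1 and T_3h_2 sit below every CON library, while the T_3h values of Sar1b overlap those of CON.

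Added over the 6 Sec23, Sec24 and Sec31 models, the coat amounted to 74.9, 96.9 and 75.7 FPKM in the CON libraries, 44.9, 47.1 and 59.1 in the T_1h libraries and 18.9, 16.9 and 46.3 in the T_3h libraries. These are sums over genes picked for passing in T_3h vs. CON and are given as a description only. As a share of the summed FPKM of all 91 genes, which does not depend on how libraries are scaled against each other, they made up 3.50% to 4.59% in CON, 2.87% to 3.15% in T_1h and 1.44% to 2.52% in T_3h. The shares of the 3 groups did not overlap, but a low share in T_3h follows from how the genes were picked and tests nothing. Other ratios did overlap. Relative to Sec61 alpha the coat was 0.612 to 1.49 in CON, 0.590 to 0.672 in T_1h and 0.337 to 0.478 in T_3h, so T_1h overlapped CON. Relative to OST48 it was 0.639 to 1.08, 0.409 to 0.568 and 0.217 to 0.429, so T_3h overlapped T_1h. The summed FPKM of the 91 genes was itself 1787 to 2167 in CON, 1563 to 1877 in T_1h and 1180 to 1834 in T_3h.

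At the entrance to the ER, 4 of the 20 translocation genes were lower in T_3h vs. CON and 16 did not pass (median -0.47, range -1.15 to 0.27). Among the 16 was MSTRG.29309, counted here as TRAP alpha. The study names this gene tropomodulin-1-like and lists it as significantly lower in T_3h vs. CON, so its identity is uncertain. Under median-ratio scaling the median of this group was -0.01, and 10 of the 20 genes were below 0, beside 54.1% of all tested genes. SRP68 (MSTRG.21297), which with SRP72 forms a protein pair that binds the SRP RNA, had 17.9, 19.4 and 18.3 FPKM in CON, 13.3, 10.2 and 17.3 in T_1h and 7.78, 4.02 and 14.3 in T_3h. CON was tight, and T_3h_2 was the lowest and T_3h_3 the highest of the T_3h libraries, all of them below CON. It fell by 1.15 (SE 0.46, adjusted p = 0.798 from limma). SRP72 (MSTRG.22664) had 5.43, 7.71 and 9.26 FPKM in CON, 3.79, 3.66 and 3.39 in T_1h and 1.96, 3.18 and 3.76 in T_3h. All T_1h and T_3h libraries lay below all CON libraries, and the gene fell by 1.10 in T_3h vs. CON (SE 0.37, adjusted p = 0.737 from limma). The other SRP72 model (MSTRG.32449) had 5.22, 5.44 and 5.68 FPKM in CON, 3.52, 3.05 and 6.20 in T_1h and 1.86, 1.15 and 4.53 in T_3h. It was below CON in every T_3h library and just missed both thresholds (log2 fold change -0.99, SE 0.45, adjusted p = 0.810 from limma).

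SRP receptor alpha (MSTRG.45033), the docking subunit on the ER membrane, had 2.69, 3.42 and 3.23 FPKM in CON, 3.42, 1.35 and 2.25 in T_1h and 0.935, 0.210 and 2.09 in T_3h. T_3h_2 was the lowest library and T_3h did not overlap CON. It fell by 1.08 (SE 0.43, adjusted p = 0.797 from limma). TRAM1 (MSTRG.9559), a membrane protein beside the translocon, had 4.46, 2.79 and 3.15 FPKM in CON, 2.76, 1.41 and 2.56 in T_1h and 0.501, 0.489 and 2.71 in T_3h. T_3h_1 and T_3h_2 were far below CON, and T_3h_3 was just under the lowest CON library. It fell by 1.12 (SE 0.47, adjusted p = 0.798 from limma). SRP68 kept its call in 9 of 18 alternatives, SRP72 (MSTRG.22664) in 11, and SRP receptor alpha and TRAM1 in 7, and none of the 4 kept it under median-ratio scaling.

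The channel itself and its most abundant partners did not pass. Sec61 alpha (MSTRG.41915), the pore subunit, had 50.3, 102 and 124 FPKM in CON, 66.9, 79.8 and 99 in T_1h and 53.4, 50.2 and 96.8 in T_3h. CON_1 was as low as the lowest T_3h library (log2 fold change -0.42, SE 0.45, adjusted p = 0.910 from limma). TRAP gamma (MSTRG.15359) and TRAP beta (MSTRG.8752), subunits of the translocon-associated protein complex, ranged from 127 to 173 and from 86.0 to 161 FPKM in T_3h against 137 to 230 and 161 to 228 in CON, and their log2 fold changes were -0.36 and -0.56 (adjusted p = 0.903 and 0.876 from limma).

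TRAP delta was carried by 2 gene models whose levels followed the replicate number and not the incubation. MSTRG.33400 had 276, 144 and 3.35 FPKM in CON, 229, 126 and 3.36 in T_1h and 215, 146 and 7.44 in T_3h. MSTRG.441 had 13.6, 141 and 308 FPKM in CON, 15.2, 143 and 308 in T_1h and 14.4, 139.9 and 316 in T_3h. The first model was high in libraries numbered 1 and nearly absent in those numbered 3, and the second was the reverse. MSTRG.33400 made up 93.7% to 95.3% of their sum in the libraries numbered 1, 46.8% to 51.1% in those numbered 2 and 1.08% to 2.30% in those numbered 3. The sum itself stayed between 230 and 323 FPKM in all 9 libraries. Neither model passed against CON at either time in limma, and MSTRG.441 was the 1 gene higher in T_1h vs. CON in the Ballgown-type test. That test kept CON_1 but left out T_1h_1, and both libraries were low in this model. In limma the T_1h vs. CON log2 fold change of MSTRG.441 was 1.29 without T_1h_1 and 0.06 with all 9 libraries. A split of the 3 libraries of 1 number from the other 6 by at least 2-fold was seen in 5 of the 91 genes, which were both TRAP delta models, derlin-2 (MSTRG.40275), HYOU1 (MSTRG.41233) and VCP (MSTRG.9101), against 19.3% of all tested genes. No sequence of the models was used here, and whether they are alleles or separate genes was not tested.

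**Figure D3:**
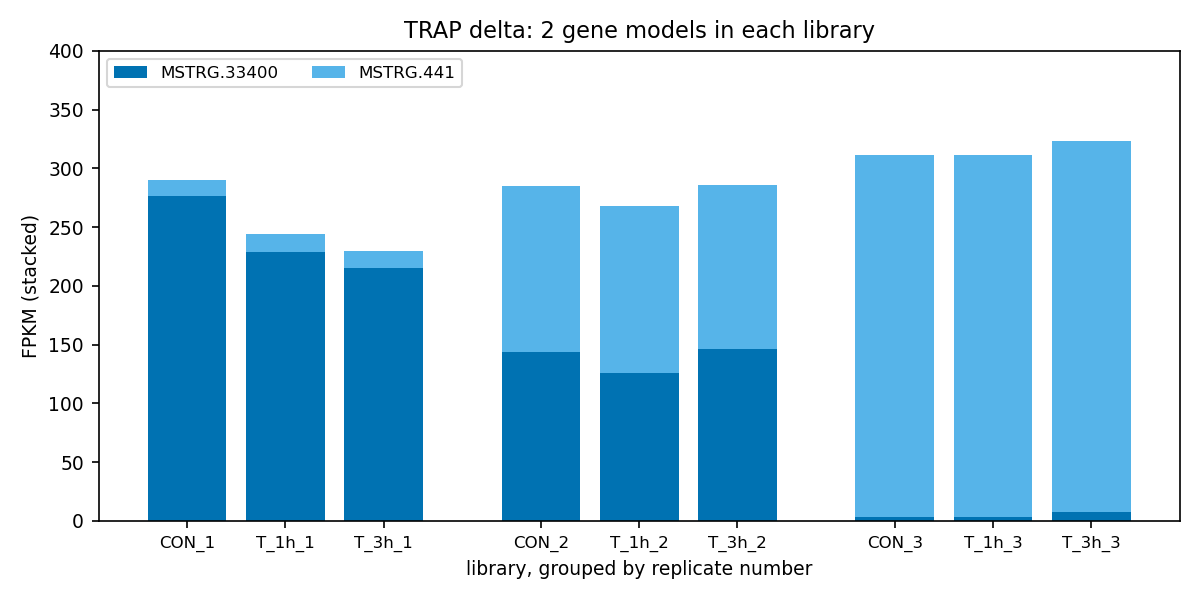
FPKM (y axis, stacked) of the 2 TRAP delta gene models in the 9 libraries (x axis), ordered by replicate number. MSTRG.33400 makes up most of the sum in the libraries numbered 1 and MSTRG.441 in those numbered 3, in CON, T_1h and T_3h alike.

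Among the folding chaperones, BiP (MSTRG.37033), the main HSP70-type chaperone of the ER lumen and a marker of ER stress in vertebrates, had 52.5, 53.8 and 53.6 FPKM in CON, 47.9, 42.5 and 40.5 in T_1h and 21.3, 23.3 and 33.4 in T_3h. The CON libraries were within 2 FPKM of each other, the T_1h libraries were below them, and the T_3h libraries were lower still, with no overlap between groups. The mean was 53.3 ± 0.724 FPKM in CON, 43.6 ± 3.85 FPKM in T_1h and 26 ± 6.48 FPKM in T_3h (SD, n = 3). BiP fell by 1.03 in T_3h vs. CON (SE 0.32, adjusted p = 0.707 from limma), and under median-ratio scaling the log2 fold change was -0.52 and did not pass. HYOU1 (MSTRG.41233), a large chaperone that works with BiP, had 2.50, 1.74 and 11.8 FPKM in CON, 2.56, 1.81 and 7.07 in T_1h and 2.75, 0.427 and 5.74 in T_3h. It was high in the libraries numbered 3 in every group, and T_3h overlapped CON (log2 fold change -0.59, SE 0.79, adjusted p = 0.935 from limma).

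Lectin chaperones hold glycoproteins while they fold, and none of their 5 genes passed (median -0.07, range -0.58 to 0.87). Calreticulin had 2 gene models. The more abundant (MSTRG.32206) had 26.4, 15.3 and 40.5 FPKM in CON, 45.6, 16.7 and 39.3 in T_1h and 44.5, 9.10 and 40.4 in T_3h, and its groups overlapped fully (log2 fold change 0.01, SE 0.67, adjusted p = 1.00 from limma). The other (MSTRG.12272) had 4.76, 3.09 and 8.05 FPKM in CON, 18.6, 4.20 and 8.93 in T_1h and 17.4, 3.01 and 16.5 in T_3h. In this model T_3h_1 and T_3h_3 were above all CON libraries and T_3h_2 was just below them (log2 fold change 0.87, SE 0.66, adjusted p = 0.881 from limma). Without T_3h_2 its log2 fold change was 1.59 and passed the thresholds, and under median-ratio scaling with all 8 libraries it was 1.3 and also passed. Without T_3h_1 it was 0.49 and without T_3h_3 it was 0.53, and neither passed. Calnexin (MSTRG.35431), the membrane-bound counterpart, had 12.9, 15.8 and 17.5 FPKM in CON, 12.7, 14.4 and 15.6 in T_1h and 9.99, 6.52 and 14.5 in T_3h. T_3h_1 and T_3h_2 were below CON and T_3h_3 was within its range (log2 fold change -0.58, SE 0.38, adjusted p = 0.878 from limma).

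In disulfide formation 1 of 7 genes was lower and 6 did not pass, with a median of -0.74, or -0.28 under median-ratio scaling. Protein disulfide isomerase (PDI, MSTRG.22133), among the most abundant of the 91 genes, had 148, 168 and 181 FPKM in CON, 159, 125 and 151 in T_1h and 91.5, 52.1 and 138 in T_3h. Every T_3h library was below every CON library, but the gene missed both thresholds (log2 fold change -0.91, SE 0.41, adjusted p = 0.807 from limma). PDIA3, which pairs with calnexin and calreticulin, had 2 gene models. The less abundant (MSTRG.36899) had 3.33, 4.79 and 10.5 FPKM in CON, 3.62, 2.34 and 4.70 in T_1h and 1.46, 0.567 and 3.35 in T_3h. T_3h_3 was just above CON_1, and the gene fell by 1.37 (SE 0.54, adjusted p = 0.793 from limma), with the call kept in 13 of 18 alternatives. The more abundant (MSTRG.25983) had 21.2, 22.9 and 23.6 FPKM in CON, 29.3, 13.9 and 23.1 in T_1h and 15.8, 6.08 and 21.4 in T_3h and did not pass (log2 fold change -0.76, SE 0.48, adjusted p = 0.873 from limma). ERp29 (MSTRG.13367), a PDI relative, ranged from 2.65 to 7.41 FPKM in CON and from 0.604 to 4.34 in T_3h (log2 fold change -0.74, SE 0.58, adjusted p = 0.883 from limma). ERO1 (MSTRG.29614), the oxidase that recharges PDI, had 1.42, 1.09 and 2.38 FPKM in CON, 2.31, 1.22 and 3.17 in T_1h and 1.93, 1.17 and 3.32 in T_3h, with a log2 fold change of 0.23.

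**Figure D4:**
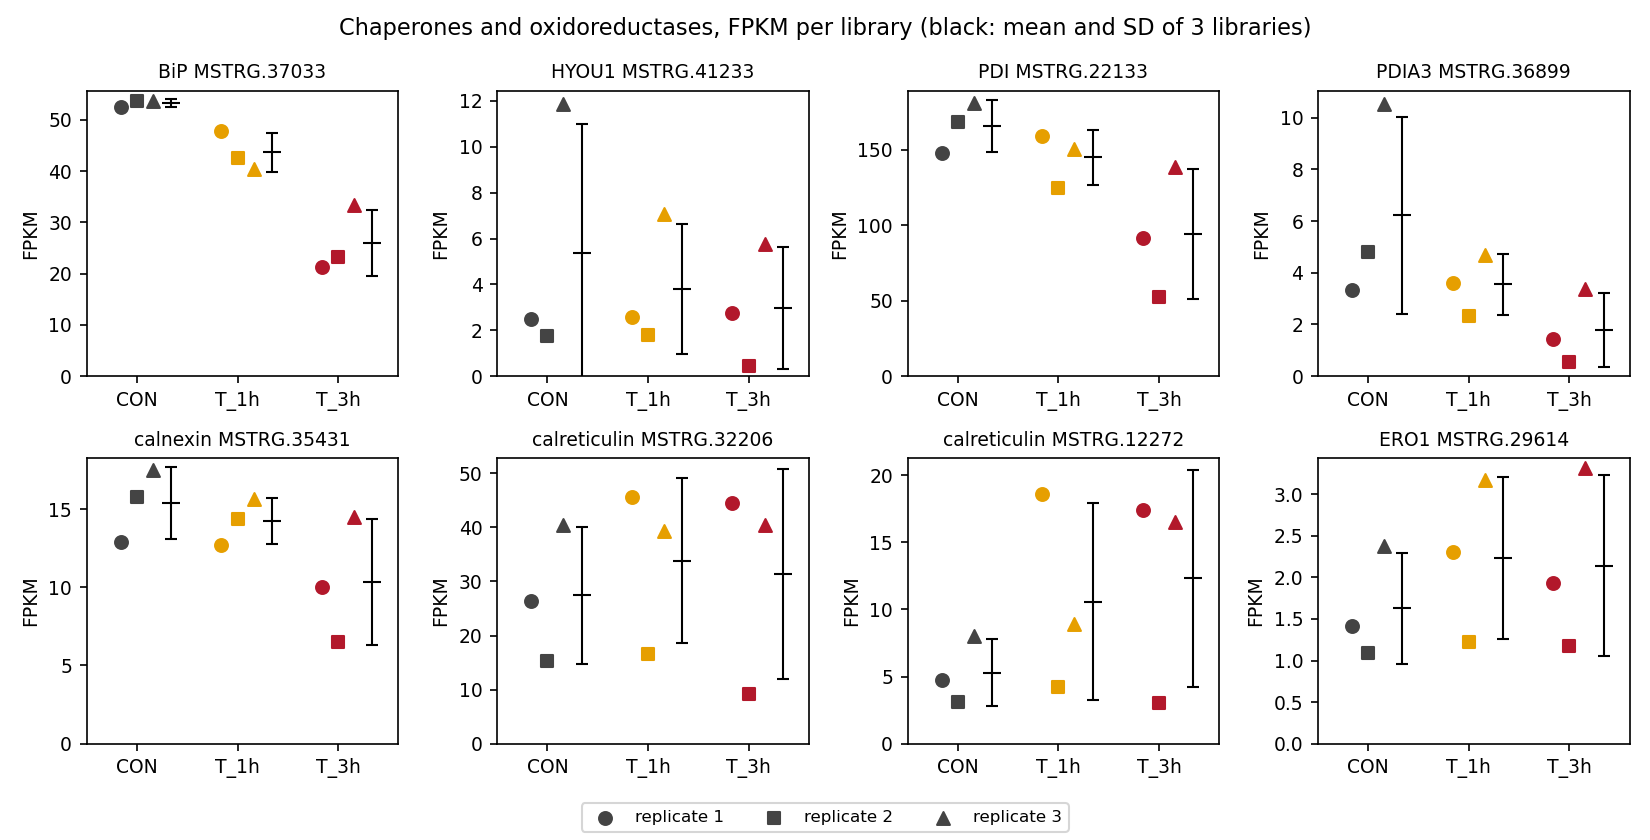
FPKM (y axis) of 8 chaperones and oxidoreductases in each library by group (x axis), with marker shapes for the replicate number and black bars for the mean and SD of 3 libraries (cut at 0 for HYOU1). BiP separates the 3 groups, whereas HYOU1, both calreticulin models and ERO1 overlap between groups.

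For N-glycosylation, 0 of 6 genes passed (median -0.45, lowest -0.71). Under median-ratio scaling the median was -0.04 and 4 of the 6 were below 0, beside 54.1% of all tested genes. The 4 included DAD1 (AJAP17597), whose log2 fold change was only -1.7e-06. OST48 (MSTRG.3235), a subunit of the oligosaccharyltransferase, had 117, 90.0 and 118 FPKM in CON, 109.7, 83 and 111 in T_1h and 87.2, 68.5 and 108 in T_3h, with the groups overlapping (log2 fold change -0.31, SE 0.34, adjusted p = 0.914 from limma), and under median-ratio scaling its log2 fold change turned to 0.21. Ribophorin II, another subunit, had 2 models. MSTRG.3830 had 26.8, 27.1 and 26.1 FPKM in CON, 19.5, 23.3 and 23.5 in T_1h and 16.8, 11.4 and 20.8 in T_3h. All its T_3h libraries were below CON, and it did not pass (log2 fold change -0.71, SE 0.34, adjusted p = 0.818 from limma). MSTRG.3689 ranged from 31.9 to 48.2 FPKM in CON and from 16.4 to 43.0 in T_3h (log2 fold change -0.59, SE 0.43, adjusted p = 0.879 from limma). DAD1 (AJAP17597), also annotated as a subunit, was listed at or near 0 in every library.

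Glycan trimming, in which glucosidases and mannosidases mark how far a glycoprotein has folded, had 0 of 6 genes past the thresholds (median -0.23). Glucosidase II alpha had 2 models at low level. MSTRG.26777 ranged from 3.41 to 6.27 FPKM in CON and from 0.790 to 4.39 in T_3h (log2 fold change -0.90, SE 0.52, adjusted p = 0.854 from limma), and MSTRG.16860 from 0.933 to 3.61 and from 0.198 to 3.06 (log2 fold change -0.54, SE 0.55, adjusted p = 0.908 from limma). The 4 mannosidase I models had mean FPKM values of 0.513 or less over the 8 tested libraries.

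In ER-associated degradation 0 of 22 genes passed in T_3h vs. CON (median -0.61, range -1.21 to 0.25). The change was below 0 in 21 of the 22, beside 71.3% of all tested genes and 79.7% of those averaging 1 FPKM or more. Under median-ratio scaling 15 of the 22 were below 0, with a median of -0.28. VCP (MSTRG.27930), the ATPase that pulls misfolded proteins out of the membrane, had 24.5, 77 and 79.6 FPKM in CON, 30.5, 61.4 and 54 in T_1h and 29.3, 18 and 51.8 in T_3h. CON_1 was below T_3h_1 and T_3h_3, so the groups overlapped (log2 fold change -0.80, SE 0.56, adjusted p = 0.879 from limma). A second VCP model (MSTRG.9101) had 14.1, 0.791 and 21.1 FPKM in CON, 12.2, 0.577 and 14.5 in T_1h and 10.8, 0.212 and 12.3 in T_3h and was low in every library numbered 2. Ubiquilin-1 (MSTRG.27509), a shuttle for ubiquitinated proteins, had 11.2, 19.7 and 24.8 FPKM in CON, 12.9, 11.1 and 21.7 in T_1h and 6.50, 2.79 and 17.4 in T_3h. T_3h_1 and T_3h_2 were below CON and T_3h_3 was within it (log2 fold change -1.21, SE 0.62, adjusted p = 0.831 from limma).

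With the replicate block, ubiquilin-1, BAP31 (MSTRG.3190), a cargo receptor of the ER membrane, and SEC11A (MSTRG.3067), a catalytic subunit of the signal peptidase, joined the 12 genes. Their log2 fold changes were -1.21, -1.07 and -1.09, with adjusted p-values of 0.304, 0.268 and 0.292 from limma with the block. Among the degradation genes with an unadjusted p of at most 0.05 and a change under the fold threshold were both models of derlin-1, a candidate channel component, and UFD1, a cofactor of VCP. The 3 log2 fold changes were -0.95 (MSTRG.29125), -0.82 (MSTRG.29122) and -0.91 (MSTRG.41433), with adjusted p-values of 0.770, 0.803 and 0.798 from limma. Derlin-1 MSTRG.29125 had 3.83, 3.76 and 2.51 FPKM in CON, 2.94, 2.16 and 2.31 in T_1h and 1.06, 0.911 and 1.85 in T_3h, and UFD1 MSTRG.41433 had 1.79, 2.28 and 2.26 FPKM in CON, 1.72, 1.01 and 1.48 in T_1h and 0.800, 0.141 and 1.17 in T_3h. In both genes all T_3h libraries were below all CON libraries.

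Of the 8 genes of the unfolded protein response, 0 passed the thresholds against CON at either time, and the median of the group was -0.11 after 1 h and -0.50 after 3 h (0.02 and -0.30 under median-ratio scaling). IRE1 (MSTRG.2516), the kinase and endoribonuclease that senses unfolded protein, had 5.31, 11 and 12.1 FPKM in CON, 6.61, 7.42 and 9.39 in T_1h and 4.92, 3.65 and 10.3 in T_3h. T_3h_3 was inside the CON range (log2 fold change -0.56, SE 0.47, adjusted p = 0.892 from limma). ATF6 (MSTRG.29376), a membrane-bound transcription factor, had 2.32, 3.24 and 6.34 FPKM in CON, 3.42, 1.45 and 5.67 in T_1h and 1.61, 0.362 and 3.95 in T_3h. Its lowest value was in T_3h_2 and the groups overlapped (log2 fold change -0.85, SE 0.61, adjusted p = 0.879 from limma). The proteases that release ATF6 in the Golgi were measured at low level. S1P (MSTRG.22229) had 0.332, 5.28 and 0.128 FPKM in CON, 0.0448, 2.72 and 0.131 in T_1h and 4.29, 2.53 and 0.170 in T_3h and S2P (MSTRG.2905) had 0.938, 0.603 and 0.663 FPKM in CON, 0.401, 0.455 and 0.943 in T_1h and 0.0196, 0.151 and 0.736 in T_3h. S1P was at several FPKM in all libraries numbered 2 and in T_3h_1, and between 0.0448 and 0.332 in the others (log2 fold change 0.40, SE 0.85, adjusted p = 0.970 from limma), and S2P had a log2 fold change of -0.45.

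eIF2 alpha (MSTRG.1795), the translation factor phosphorylated under ER stress, had 14.8, 8.88 and 42.7 FPKM in CON, 26.1, 7.91 and 31.5 in T_1h and 24.8, 5.10 and 30.8 in T_3h. It was high in libraries numbered 3 and low in those numbered 2 in every group, and the groups overlapped (log2 fold change -0.15, SE 0.83, adjusted p = 0.992 from limma). The gene MSTRG.32012 had no protein name and was annotated by GO terms to transcription and the unfolded protein response. It had 92.5, 172 and 133 FPKM in CON, 74.9, 92.6 and 75.5 in T_1h and 70.0, 54.2 and 90.1 in T_3h. CON_1 was below the CON level of the other 2 libraries, all T_3h libraries were below all CON libraries, and the gene reached the p threshold but not the fold threshold (log2 fold change -0.87, SE 0.37, adjusted p = 0.803 from limma). The kinases MAP2K7 (MSTRG.16086), which activates the stress kinase JNK, and MAP3K15 (MSTRG.2105) had log2 fold changes of -0.65 and -0.36 (adjusted p = 0.873 and 0.888 from limma).

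Among the remaining genes, alpha-crystallin B (MSTRG.30013), a small cytosolic chaperone listed by KEGG in this pathway, had 20.1, 24.8 and 16.1 FPKM in CON, 6.35, 22.3 and 24.9 in T_1h and 22.8, 35.3 and 33 in T_3h. T_3h_2 and T_3h_3 exceeded every CON library and T_3h_1 was within the CON range (log2 fold change 0.55, SE 0.35, adjusted p = 0.873 from limma). It passed as higher under median-ratio scaling, at 1.06. MSTRG.34468 was described as programmed cell death protein 4-like, which is a regulator of translation, but carried the KO entry of a glycan-trimming glucosidase, so its identity is uncertain. It ranged from 13.6 to 36.8 FPKM in CON and from 17.0 to 25.1 in T_3h (log2 fold change -0.14, SE 0.48, adjusted p = 0.987 from limma). IMP1 (MSTRG.32386), a protease of the inner mitochondrial membrane that KEGG lists under Protein export, ranged from 2.71 to 3.91 and from 1.18 to 2.21 FPKM (log2 fold change -0.59, SE 0.35, adjusted p = 0.857 from limma).

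**Figure D5:**
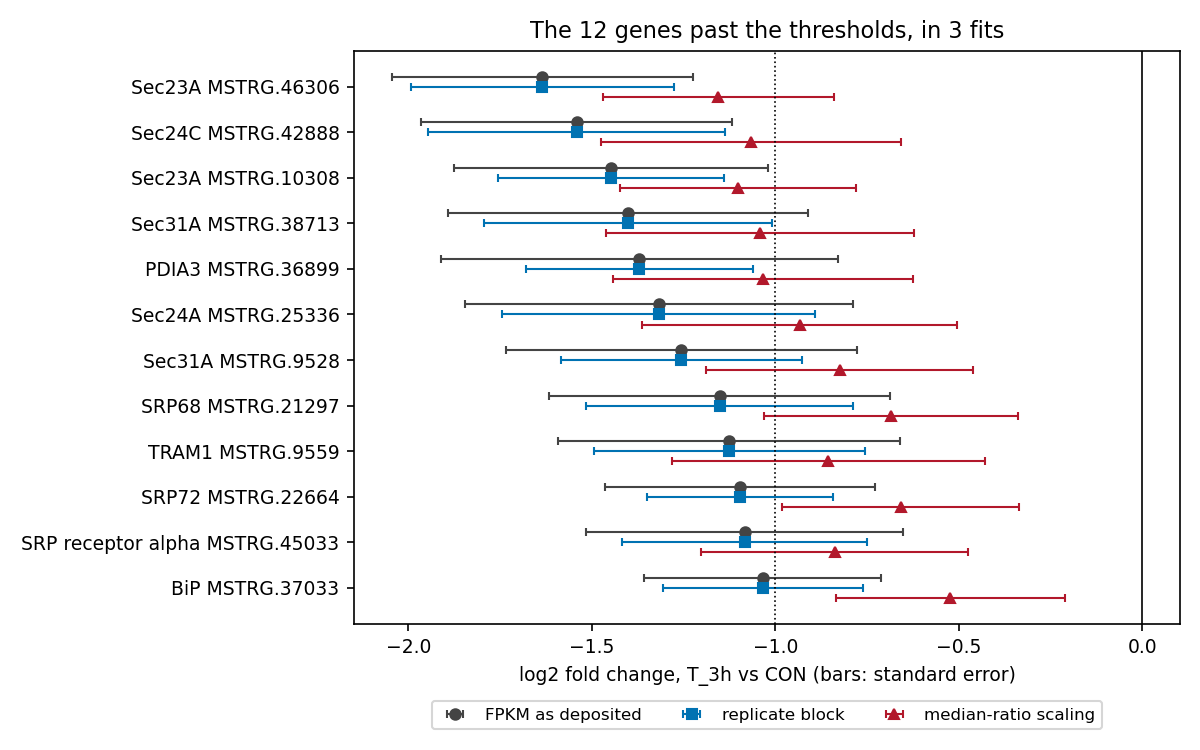
Log2 fold change with standard error (x axis) of the 12 genes past the thresholds in T_3h vs. CON (y axis), from FPKM as deposited, with the replicate block, and after median-ratio scaling of the libraries. The dotted line marks the fold threshold, and after median-ratio scaling 5 of the 12 genes remain past it.

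After 1 h at 37 °C the ER genes showed little that exceeded the spread between libraries. In T_1h vs. CON 0 of the 91 genes passed the thresholds in limma, and 0 had an unadjusted p of at most 0.05, beside 0.473% of all tested genes lower and 0.398% higher. In the Ballgown-type test 1 passed, as higher, beside 0.667% of all tested genes. The 1 gene was TRAP delta MSTRG.441, which was low in every library numbered 1, and T_1h_1 was not in the test. The median log2 fold change of the 91 genes was -0.16, against -0.06 for all tested genes and -0.16 for those averaging 1 FPKM or more. It was 0.03 without T_1h_2 and -0.33 without T_1h_3 (90 genes tested), and 0.06 under upper-quartile scaling. For genes averaging 1 FPKM or more the median was -0.09, -0.22 and 0.05, in that order. The lowest p-values belonged to genes of ER exit and the SRP. Sec23A had log2 fold changes of -0.94 (MSTRG.46306) and -0.99 (MSTRG.10308), and SRP72 (MSTRG.22664) of -0.88, with an adjusted p of 1 from limma for each. With the replicate block, 2 genes were lower, Sec23A MSTRG.10308 (-1.08) and SRP72 MSTRG.22664 (-1.07), each with an adjusted p of 0.915 from limma with the block, beside 1.09% of all tested genes. Only 2 T_1h libraries were tested, and in T_1h_1, which was not, the values of both Sec23A models and of SRP72 MSTRG.22664 were also below all CON libraries.

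Between T_3h and T_1h 0 of the 91 genes passed the thresholds in limma, with 1 at an unadjusted p of at most 0.05 (mannosidase I AJAP14024), beside 0.645% of all tested genes lower and 0.0824% higher. In the Ballgown-type test 0 passed. The median log2 fold change of the 91 genes was -0.39, against -0.11 for all tested genes and -0.27 for those averaging 1 FPKM or more. It was -0.17 under median-ratio scaling, against -0.03 for all tested genes and -0.06 for those averaging 1 FPKM or more. Without T_3h_2 (90 genes tested) it was -0.17, against -0.03 and -0.09, and without T_3h_3 it was -0.63, against -0.21 and -0.45. Without T_3h_3 10 genes passed, all lower, beside 2.8% of all tested genes, and without T_3h_2 1 gene, calreticulin MSTRG.12272, was higher, beside 0.221%. For the COPII coat genes and BiP, the T_1h and T_3h comparisons share the same CON libraries, so their values are given side by side and no trend was tested. BiP had -0.35 after 1 h and -1.03 after 3 h against CON, and Sec24C had -0.54 and -1.54.

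The other genes of the 2 pathways, which the selection had dropped, numbered 44, of which 42 were tested. In T_3h vs. CON 0 were higher and 2 were lower, with a median of -0.44, beside 0.473% of all tested genes higher and 3.67% lower. These 2 were a dnaJ homolog subfamily B member 1-like gene (MSTRG.17687, -1.59), a co-chaperone of HSP70, and a ubiquitin-conjugating enzyme E2 G1-like gene (MSTRG.34424, -1.34). A wider search of the descriptions for words of the role groups gave 344 genes without a pathway term, many of them no ER genes. Of the 325 tested, 0 were higher and 19 were lower, with a median of -0.23, beside the same shares of all tested genes. Of the genes averaging 1 FPKM or more, 8.63% were lower. Trimmed by their descriptions to 27 ER genes, 0 passed in T_3h vs. CON, with a median of -0.58 and 26 of the 27 below 0. Of all tested genes 71.3% were below 0, and of those averaging 1 FPKM or more 79.7%.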

How the data were processed

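RNA of 9 body wall libraries (CON, T_1h and T_3h, n = 3 each) was sequenced as paired-end reads of 150 bases. The authors removed adaptors, primers and bases with a quality score under 20, aligned the reads to the genome of *A. japonicus* with HISAT, assembled transcripts with StringTie, and deposited FPKM values (fragment counts scaled for exon length and sequencing depth) for each gene, with GO, KEGG and description columns. The submitters' processing notes name Bowtie 0.12.2, HISAT2 2.0 and StringTie 1.3.0. FPKM is not a count, and the number of reads behind a value was not recovered, so replication alone sets how precise it is. Low FPKM values lay in steps, and the commonest ratio of values under 0.3 FPKM gave the depth of each library relative to CON_1. The FPKM columns were mapped to samples by their titles.

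Groups were taken from the sample titles. FPKM was fitted as log2(FPKM + 1) with limma 3.58.1 (R 4.3.3), with all 3 groups in 1 model of 8 libraries and the trend option, over the 50973 genes detected (FPKM above 0) in 2 or more of these libraries. Fold changes on this scale understate those of genes with low FPKM. All p-values are two-sided. An exact permutation test of 3 libraries against 3 cannot give a p under 0.1. The labels give the samples as replicates but not the animal of each, so p-values measure the spread between these samples. Replicate numbers were taken to pair the samples because deviations from the group means correlated in all 9 pairs of libraries with the same number (0.595 to 0.722), against -0.438 to -0.118 in the 18 other pairs. The main fit did not use this pairing, so its p-values also measure the spread between replicate numbers. Only the fits with the replicate block used it. With T_1h_1 left out, the T_1h group held no replicate 1, so T_1h comparisons without the block also differed in replicate numbers. The code was tested on simulated data.

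The members and lists were chosen with earlier results of these data known. DnaJ in the selection was matched without regard to case. Roles were assigned from descriptions, KO entries and GO terms. Genes named are up to 10 of the largest falls and rises past the thresholds at a mean FPKM of at least 1, the 3 of highest mean FPKM per role, and those of the unfolded protein response. Others were named after their values were seen, SRP receptor alpha, Sec13, VIP36, Sec61 alpha, ERO1, DAD1, derlin-1, UFD1, BAP31 and SEC11A among them. Alternatives were another pseudocount (0.1), a minimum mean FPKM of 1, all 9 libraries, 2 scalings, the replicate block, the variance trend left out, a Ballgown-type F-test and leaving out each library. None of the 91 gene names matched the RefSeq gene table used here. Tables were handled with Python 3.11.15, pandas 2.3.3 and numpy 2.4.6, and figures drawn with matplotlib 3.10.9.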

Additional observations from a re-analysis of the deposited data

How the results depend on the processing

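For T_3h vs. CON, where 12 of the 91 genes passed, 7 passed after median-ratio scaling, 7 after upper-quartile scaling and 7 after median-ratio scaling with the replicate block, each time 5 lower and 2 higher. Of all tested genes, 1.68%, 1.64% and 2.3% were lower in these fits, in that order, and 1.12%, 1.13% and 1.55% were higher. The Ballgown-type test called 1, as lower, where it called 0.84% of all tested genes lower and 0.7% higher, and the cause of these differences was not tested. Leaving out 1 library gave 3 to 23, where the share of all tested genes called lower ran from 1.92% to 6.66%. The replicate block alone gave 15, all lower, beside 5.5% of all tested genes. For T_1h vs. CON, where 0 passed, the replicate block gave 2, beside 1.09% of all tested genes lower. All 9 libraries with the replicate block gave 1 (Sar1b MSTRG.25335), beside 0.632% lower. Leaving out 1 CON or T_3h library gave 0 to 1, with the 1 found without CON_1, beside 0.506% lower. All of these were lower. The Ballgown-type test gave 1, as higher, beside 0.667% higher. For T_3h vs. T_1h, where 0 passed, a pseudocount of 0.1 gave 2, beside 1.44% of all tested genes lower, and upper-quartile scaling 1, beside 0.653%. All 9 libraries with the replicate block gave 1, beside 1.2% lower, and no variance trend 2, beside 0.712%. Each of these genes was lower. Leaving out 1 CON or T_3h library gave 0 to 10, with the 10 found without T_3h_3, beside 2.8% of all tested genes lower. Without T_1h_2 or T_1h_3 the 1 library left in T_1h was assumed to vary like the other groups. The other alternatives left these 3 counts within 1.5 times. No value that passed changed sign in any alternative, but among the 86 log2 fold changes of named genes, 39 changed sign in at least 1 of the 18 alternatives, all of them values that did not pass. With 3 libraries or fewer per group, differences under the spread between libraries were not detectable.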
